A study of Mus musculus with 17 samples.

Results

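The contractile and fibre-type genes of skeletal muscle were followed through fat implants and endogenous fat of mice. The set was a list of 40 gene symbols, taken by name from a table of 54658 genes, and all 40 were found. It holds 10 thick filament genes, 8 thin filament genes, 7 calcium handling genes, 10 genes of the Z-disc and its scaffold, and 5 genes of energy metabolism. By the fibre in which the form is best known, 14 are fast, 8 are slow and 18 have no fast or slow form. Of the 40 genes, 39 passed the filter on low values used for the tests.

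The 16 mouse RNA-seq libraries analysed here carry 8 group codes with 2 libraries each, from a study of knee osteoarthritis made by surgery. Mice of a kind named LD were injected under the skin of the sternum, at 3 to 5 weeks of age, with mouse embryonic fibroblasts (MEF), which grew into a tissue like fat. The MEF came from pups with a homozygous leptin knockout (KO) or from wildtype (WT) pups. The medial meniscus of the left knee was destabilized at 16 weeks in the surgical animals. The age at killing was 28 weeks for all groups, with or without surgery. A group of leptin heterozygous MEF that the design text mentions, and a further labelled library of subcutaneous fat with the code ESF, were not analysed here. KO implants carried the codes MKM (male, surgery) and MKF (female, surgery), and WT implants the codes MWM (male, surgery) and MWF (female, surgery). Endogenous subcutaneous fat carried the code ESM (male, surgery). Endogenous visceral fat carried the codes EVM (surgery), EVFY (a code the design text does not spell out, placed with visceral fat by the genotype label Vis) and EVFN (no surgery). The design text also calls the recipients male, and it does not say what LD stands for or which fat these hosts kept. Nothing in the labels tells whether replicates are different animals, and the p-values therefore describe the spread among these libraries, possibly a technical one.

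In striated muscle, thick filaments of myosin slide past thin filaments of actin, and the Z-disc anchors the thin filaments at the ends of each sarcomere. Calcium leaves the sarcoplasmic reticulum through the ryanodine receptor, binds troponin C on the thin filament and is pumped back by a calcium ATPase. Fast and slow fibres use different genes for many of these parts: Myh4, Myh1 and Myh2 encode the myosin heavy chains of type IIb, IIx and IIa fibres, and Myh7 encodes that of slow type I fibres. White fat is not a striated muscle, although its blood vessels hold smooth muscle with its own actin and myosin genes.

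Myh4 made up most of the myosin heavy chain reads in the WT implants, and Myh7 is its slow counterpart. The starts of both genes and of Acta1, the actin of the skeletal thin filament, are shown as examples. Each is the stretch from 250 bases before to 50 bases after the transcription start, 300 bases in all, on the strand of the gene, from RefSeq annotation of build GRCm38.p6. Capitals mark E-boxes (CANNTG, the core bound by myogenic bHLH factors), CArG boxes (bound by serum response factor) and MEF2 sites, found by a search of both strands, and the marked motifs do not overlap here. The regions are chr8:123894726-123895025 on the minus strand for Acta1, chr11:67237562-67237861 on the plus strand for Myh4 and chr14:54994577-54994876 on the minus strand for Myh7.
Acta1: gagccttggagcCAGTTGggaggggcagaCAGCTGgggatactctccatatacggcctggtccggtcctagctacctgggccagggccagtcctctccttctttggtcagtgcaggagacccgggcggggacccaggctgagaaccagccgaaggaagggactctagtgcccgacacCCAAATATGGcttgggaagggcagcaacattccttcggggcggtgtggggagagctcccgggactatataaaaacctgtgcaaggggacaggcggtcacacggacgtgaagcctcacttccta
Myh4: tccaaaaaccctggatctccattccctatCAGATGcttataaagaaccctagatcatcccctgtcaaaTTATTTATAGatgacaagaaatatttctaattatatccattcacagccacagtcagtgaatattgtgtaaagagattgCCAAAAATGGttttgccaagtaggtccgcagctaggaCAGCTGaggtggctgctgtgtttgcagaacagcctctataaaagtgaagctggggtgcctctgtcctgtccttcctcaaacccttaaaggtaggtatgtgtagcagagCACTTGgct
Myh7: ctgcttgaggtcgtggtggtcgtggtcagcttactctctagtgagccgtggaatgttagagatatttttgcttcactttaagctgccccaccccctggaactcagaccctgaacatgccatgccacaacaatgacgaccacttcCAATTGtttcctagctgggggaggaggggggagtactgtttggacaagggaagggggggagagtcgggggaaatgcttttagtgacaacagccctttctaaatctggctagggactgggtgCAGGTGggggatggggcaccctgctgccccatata
The Acta1 stretch held 2 E-boxes and 1 CArG box, the Myh4 stretch held 3 E-boxes, 1 CArG box and 1 MEF2 site, and the Myh7 stretch held 2 E-boxes. Myh7 has a further annotated start, whose window (chr14:54994500-54994799) is not shown and also held 2 E-boxes. RefSeq promoter entries were matched for 31 of the 40 genes, in 38 windows. An E-box was found in 84.2% of these windows, against 72.3% of all 32851 promoter windows. A CArG box was found in 13.2% of them, against 1.63% of all windows, and a MEF2 site in 18.4%, against 3.19%. These matches describe the letters in the windows and do not show that a factor was bound there.

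The libraries held 16444965 to 25805502 reads. The labels name the tissue as a sensory ganglion, and the data went against this: summed over 11 sensory neuron genes, levels were 10.8 to 30.3 counts per 1000000 reads (CPM) in KO implants, 40.9 to 54.1 CPM in WT implants, 11.9 and 15.8 CPM in subcutaneous fat and 7.34 to 11.6 CPM in visceral fat. Summed over 8 white fat genes, levels were 10725 to 32678 CPM in these libraries. Reads of Lep, the knocked-out gene, numbered 1336, 1644 and 1726 CPM in KO implants, against 1888, 2675, 806 and 1019 CPM in WT implants. The ranges overlapped, and since the labels do not say which part of Lep was altered, its reads do not check the genotype. The libraries labelled MKM1 and EVFN1 stood apart from their groups over all genes: MKM1 correlated best with EVFY1 (r = 0.989, against 0.890 with MKM2) and EVFN1 with MKF1 (r = 0.984, against 0.906 with EVFN2). Both are given singly and were left out of every group value and test, which leaves 3 KO implant, 4 WT implant, 2 subcutaneous and 5 visceral libraries.

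The amount of skeletal muscle RNA differed widely between libraries, also between the libraries of the same group. Summed over the 40 genes, KO implants held 375 CPM in MKM2, 178 CPM in MKF1 and 4517 CPM in MKF2. WT implants held 23720 CPM in MWM1, 26520 CPM in MWM2, 73270 CPM in MWF1 and 5820 CPM in MWF2. Every WT implant was thus above every KO implant, and MWF1, with 7.33% of all its reads in these 40 genes, was 411 times above MKF1. Subcutaneous fat held 258 CPM in ESM1 and 30489 CPM in ESM2. Visceral fat held 209 CPM in EVM1, 289 CPM in EVM2, 1535 CPM in EVFY1, 1997 CPM in EVFY2 and 1075 CPM in EVFN2. ESM2 lay in the range of the WT implants and ESM1 in that of the visceral libraries. The sums include Des, which smooth muscle also expresses. It made up 64.8% of the sum in MKM2 and 43.0% in EVM1. Without Des the KO implants held 132 CPM in MKM2, 129 CPM in MKF1 and 4371 CPM in MKF2. In tissue RNA, fewer muscle fibres and less muscle RNA per fibre cannot be told apart.

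**Figure D1:**
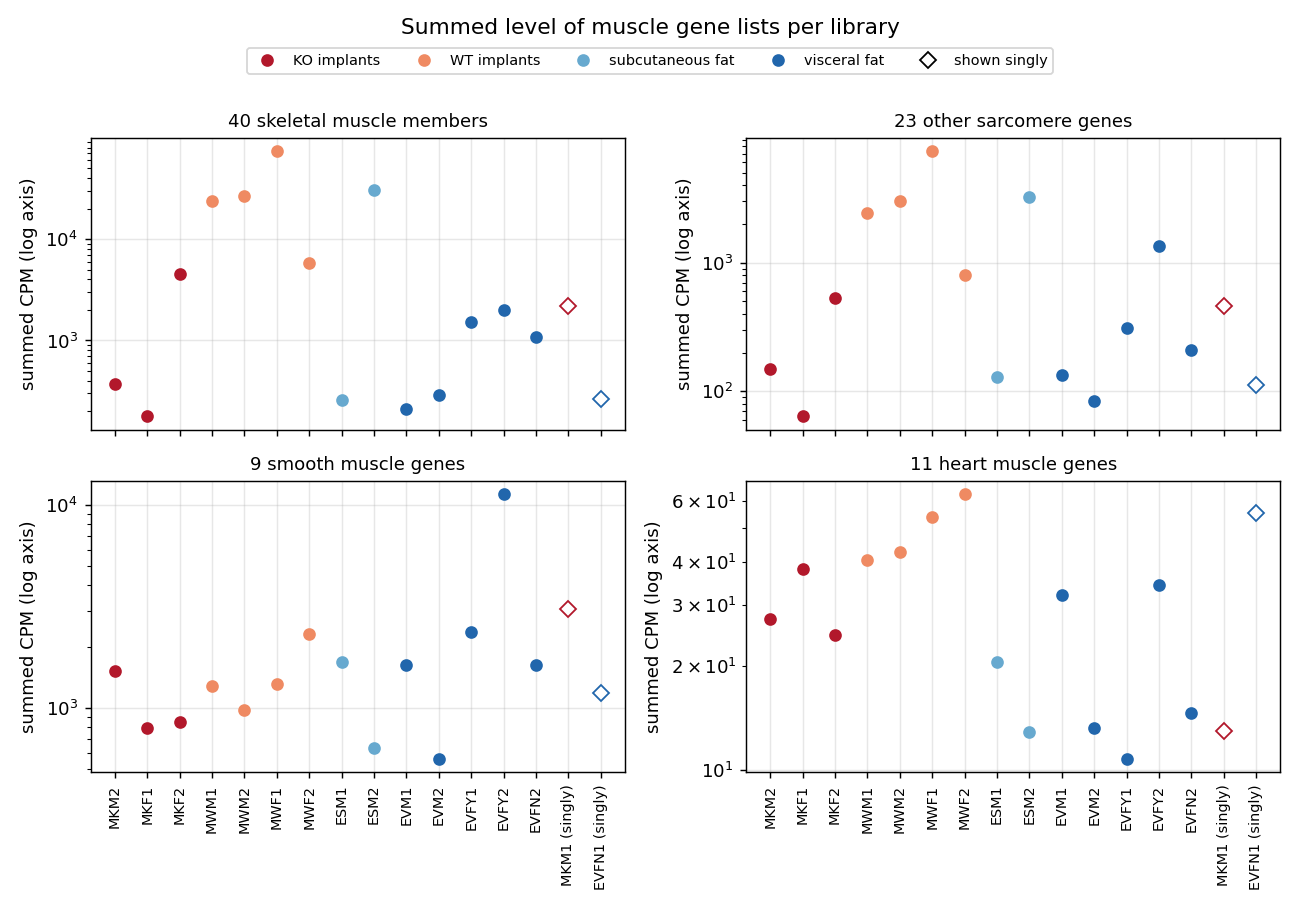
Summed level in CPM (log axis) of the 40 skeletal muscle genes, 23 other sarcomere genes, 9 smooth muscle genes and 11 heart muscle genes in each of 16 libraries, 1 point a library. The 4 WT implants sit at 5820 to 73270 CPM for the skeletal muscle genes and ESM2 among them at 30489 CPM, while EVFY2 stands highest for the smooth muscle genes.

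In 4 of the 6 pairs of libraries of a group code, nearly all of these genes differed in the same direction. Between ESM2 and ESM1 the sums differed 118-fold, and all 39 genes that passed the filter were higher in ESM2, by 0.34 (Casq2) to 9.24 (Ttn) on the log2(CPM + 0.5) scale, with a median of 7.09. The median size of the difference between these 2 libraries over all genes tested was 0.29. MKF2 and MKF1 differed 25.3-fold in sum, with 37 of 39 genes higher in MKF2 and a median log2 difference of 4.26. MWF1 and MWF2 differed 12.6-fold, with 39 of 39 genes higher in MWF1 and a median of 3.67. MWM2 and MWM1 were close in sum, 1.12-fold apart, with 25 of 39 genes higher in MWM2 and log2 differences from -1.79 (Myl3) to 0.91 (Atp2a1). EVM2 and EVM1 were 1.38-fold apart in sum, with 28 of 39 genes higher in EVM2 and log2 differences from -1.53 (Myot) to 5.61 (Myh4).

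In the EVFY pair the sum and the genes went opposite ways. EVFY2 had a sum 1.30 times that of EVFY1, yet 37 of 39 genes were lower in EVFY2, with a median log2 difference of -2.40. Des, which encodes desmin, an intermediate filament of skeletal, heart and smooth muscle, made up 86.8% of the EVFY2 sum with 1732 CPM. Without Des the sum was 265 CPM in EVFY2 and 1286 CPM in EVFY1. EVFY2 also had the highest level of the 9 smooth muscle genes, 11300 CPM, against 561 to 3078 CPM in the other 15 libraries, and its Myh11, the smooth muscle myosin, stood at 4672 CPM.

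**Figure D2:**
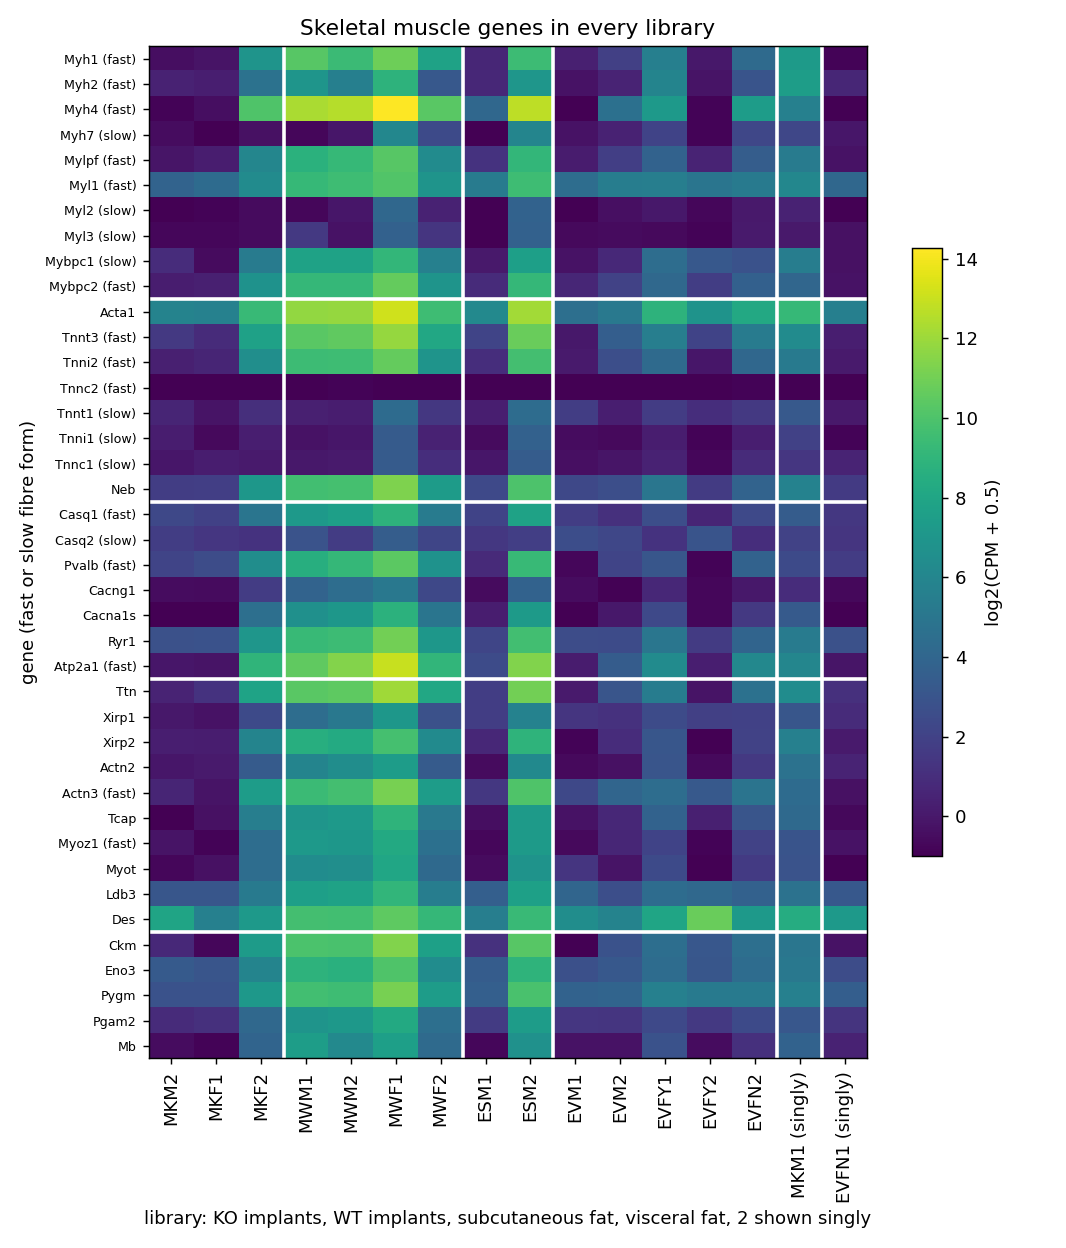
Level of each of the 40 genes as log2(CPM + 0.5) (colour) in 16 libraries (columns), with genes ordered by role and white lines between roles and between groups. The WT implants and ESM2 are bright in nearly every row, MKF2 is between, and Tnnc2 is dark in all libraries. The slow forms other than Mybpc1 and Casq2 are brightest in MWF1 and ESM2, with Tnnt1 at 9.15 CPM in MKM1.

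Among the thick filament genes, the fast myosin Myh4 (chromosome 11, 67238029 to 67260446, plus strand) was the most abundant. Myh4 had 0.0509 CPM in MKM2, 0.242 CPM in MKF1 and 1079 CPM in MKF2, and 5083, 6106, 19613 and 1284 CPM in MWM1, MWM2, MWF1 and MWF2. It had 16.5 and 6937 CPM in ESM1 and ESM2, and 0, 23.9, 153, 0.0548 and 172 CPM in EVM1, EVM2, EVFY1, EVFY2 and EVFN2. The 4 WT implants and ESM2 were above all other libraries, and MKF2 came next. Myh1, the IIx myosin on the same chromosome, had 0.255, 0.387 and 120.2 CPM in the KO implants, 1236, 666, 1871 and 221 CPM in the WT implants, 1.08 and 708 CPM in subcutaneous fat, and 0.493 to 47.0 CPM in visceral fat. Myh2, the IIa myosin, had 0.866, 0.725 and 26.9 CPM in the KO implants, 124, 46.6, 465.8 and 8.82 CPM in the WT implants, 1.13 and 127 CPM in subcutaneous fat, and 0.335 to 58.8 CPM in visceral fat, so that its groups overlapped. These 3 genes are close paralogs in a cluster, and reads could be shared between them.

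The slow myosin Myh7 followed another pattern. Myh7 had 0.204, 0 and 0.300 CPM in the KO implants, 0.0940 and 0.452 CPM in MWM1 and MWM2, 66.99 CPM in MWF1 and 4.80 CPM in MWF2. It had 0 and 61.6 CPM in ESM1 and ESM2, and 0.0548 to 4.16 CPM in visceral fat, with the highest value in EVFN2. The libraries MWM1 and MWM2, which were rich in Myh4, were thus as low in Myh7 as the KO implants. The slow light chain Myl2 kept this order, while Myl3 was higher in MWM1 than in MWF2 and was highest in ESM2: Myl2 had 0.0940, 0.452, 16.9 and 0.851 CPM in MWM1, MWM2, MWF1 and MWF2 and 13.3 CPM in ESM2, and Myl3 had 2.40, 0.339, 12.8 and 2.07 CPM in these WT implants and 13.0 CPM in ESM2. In the KO implants Myl2 lay at 0 to 0.172 CPM and Myl3 at 0.0966 to 0.172 CPM.

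Of the fast light chains, Mylpf, the regulatory chain, had 0.407, 0.676 and 64.6 CPM in the KO implants, 434, 608, 1236 and 82.9 CPM in the WT implants, 1.82 and 553 CPM in subcutaneous fat and 0.614 to 13.2 CPM in visceral fat. Myl1, the essential chain, was the thick filament gene with the most even background, at 14.2, 19.8 and 80.8 CPM in the KO implants, 597, 728, 1112 and 118 CPM in the WT implants, 40.1 and 729 CPM in subcutaneous fat and 21.8 to 45.7 CPM in visceral fat. Its lowest value in any library was thus well above that of Mylpf. Mybpc2, the fast myosin binding protein C, had 0.662, 0.773 and 109 CPM in the KO implants, against 577, 576, 1593 and 116 CPM in the WT implants, 1.36 and 576 CPM in subcutaneous fat and 1.06 to 17.5 CPM in visceral fat. Mybpc1, the slow form, had 1.43, 0.193 and 39.4 CPM in the KO implants, 222, 217, 540.3 and 49.1 CPM in the WT implants, 0.511 and 196 CPM in subcutaneous fat and 0.335 to 21.0 CPM in visceral fat. Mybpc1 was thus high in MWM1 and MWM2, where the slow forms Myh7 and Myl2 each had 0.0940 and 0.452 CPM.

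On the thin filament, Acta1 (chromosome 8, 123891769 to 123894751, minus strand) had 56.8, 52.5 and 617 CPM in the KO implants and 3501, 3655, 9098 and 743 CPM in the WT implants. It had 72.1 and 4478 CPM in subcutaneous fat and 22.99, 35.0, 461, 113 and 300.1 CPM in visceral fat. The KO and WT implants did not overlap, and no library was at 0. Per kilobase of exon, Acta1 was the highest of the 40 genes in MWF1, at 5923 CPM per kb, ahead of Myh4 at 3260, Tnnt3 at 2366 and Atp2a1 at 2315 CPM per kb. Fast troponin T, Tnnt3, had 2.39, 1.35 and 213 CPM in the KO implants, 1332, 1471, 3746 and 285 CPM in the WT implants, 3.80 and 1785 CPM in subcutaneous fat and 0.502 to 44.9 CPM in visceral fat. Fast troponin I, Tnni2, had 0.764, 1.015 and 91.3 CPM, against 695, 723, 1634 and 117 CPM, in KO and WT implants, with 1.53 and 848 CPM in subcutaneous fat and 0.439 to 18.8 CPM in visceral fat. The fast troponins thus ranked the libraries as Myh4 did at the top, with MWF1 highest and ESM2 second.

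The slow troponins stayed low in most muscle-rich libraries. Tnnt1 had 0.967, 0.387 and 1.59 CPM in the KO implants, 0.752, 0.678, 19.6 and 2.31 CPM in the WT implants, 0.737 and 20.4 CPM in subcutaneous fat and 0.698 to 2.90 CPM in visceral fat. Tnni1 had 0.145 to 0.730 CPM in the KO implants, 0.329, 0.452, 10.04 and 0.851 CPM in the WT implants, 0.170 and 13.0 CPM in subcutaneous fat and 0.0548 to 0.713 CPM in visceral fat. Tnnc1, the troponin C of slow and heart muscle, had 0.458 to 0.676 CPM in the KO implants, 0.470, 0.565, 9.88 and 1.52 CPM in the WT implants, 0.454 and 10.2 CPM in subcutaneous fat and 0.1096 to 1.31 CPM in visceral fat. For all 3 genes MWF1 and ESM2 stood apart and the other libraries overlapped.

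Tnnc2, the troponin C of fast fibres, was the only one of the 40 genes that failed the filter. It was listed at 0 in 14 of 16 libraries and had 1 read each in MWM2 and EVFN2, although its partners Tnnt3 and Tnni2 reached 3746 and 1634 CPM. Its exons (chromosome 2, 164777161 to 164779967, minus strand) span 800 bases, of which 592, or 74.0%, overlap exons of other genes, chiefly Ube2c on the opposite strand. Ube2c, a ubiquitin-conjugating enzyme of dividing cells, had 2.15 to 32.6 CPM. The strand setting of the counting is not given in the sources used here, and the part of this overlap in the absent Tnnc2 reads was not tested. Overlap also touched Mb (31.9% of exon bases), Atp2a1 (21.9%), Cacna1s (19.98%), Ckm (15.5%) and Myh7 (13.3%), whose levels are uncertain to that extent. Other members had smaller overlaps, such as 8.11% for Myh1 and 8.00% for Casq1. Neb, the giant thin filament protein nebulin, had 2.90, 3.00 and 133 CPM in the KO implants, 786, 883, 2537 and 165 CPM in the WT implants, 4.65 and 1035 CPM in subcutaneous fat and 2.69 to 31.9 CPM in visceral fat.

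Of the calcium handling genes, Atp2a1, the fast calcium ATPase of the sarcoplasmic reticulum, had 0.458, 0.387 and 513 CPM in the KO implants, 1494, 2807, 8049 and 529 CPM in the WT implants, 5.05 and 2604 CPM in subcutaneous fat and 0.614 to 83.4 CPM in visceral fat. Ryr1, the ryanodine receptor of skeletal muscle, had 6.26, 6.81 and 131 CPM in the KO implants, 621, 701, 2104 and 137 CPM in the WT implants, 4.14 and 806 CPM in subcutaneous fat and 2.69 to 31.5 CPM in visceral fat. For both genes MKF2 came close to MWF2, the lowest WT implant, without reaching it. Pvalb, the calcium buffer parvalbumin of fast fibres, had 3.82, 5.31 and 88.7 CPM in the KO implants, 379, 572, 1376 and 109 CPM in the WT implants, 1.25 and 620.3 CPM in subcutaneous fat and 0.0548 to 13.5 CPM in visceral fat. Casq1, the fast calsequestrin, had 4.43, 3.43 and 30.4 CPM in the KO implants, 149, 192, 471 and 40.9 CPM in the WT implants, 3.69 and 219 CPM in subcutaneous fat and 0.987 to 5.93 CPM in visceral fat. Casq2, the calsequestrin of slow and heart muscle, ranged only between 1.49 and 10.7 CPM over the 14 libraries, and its highest visceral value, 7.29 CPM, was that of EVFY2. The calcium channel subunit Cacna1s had 0 to 22.8 CPM in the KO implants, against 30.1 to 447 CPM in WT implants, and Cacng1 had 0.193 to 2.83 CPM in KO implants, against 4.44 to 33.6 CPM in WT implants.

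Among the Z-disc and scaffold genes, Des had 243, 49.5 and 146 CPM in the KO implants, 833, 782, 1405 and 582 CPM in the WT implants, 46.2 and 661 CPM in subcutaneous fat and 89.8, 55.5, 249, 1732 and 144 CPM in visceral fat. EVFY2 was above every WT implant, which no other gene of the set showed. The giant spring protein Ttn had 0.916 to 234 CPM in the KO implants, against 287 to 4273 CPM in WT implants, with 0.384 to 42.1 CPM in visceral fat. The fast alpha-actinin Actn3 had 0.967, 0.387 and 176 CPM in the KO implants, against 174 to 2270 CPM in WT implants, so that MKF2 reached MWF2. Ldb3, a Z-disc binding protein of alpha-actinin, had 7.97 to 36.6 CPM in the KO implants, against 43.4 to 525 CPM in WT implants, with 5.81 to 20.8 CPM in visceral fat. Xirp1, Xirp2, Actn2, Tcap, Myoz1 and Myot had their highest level in MWF1, from 133 CPM for Xirp1 to 870.3 CPM for Xirp2.

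Of the metabolic genes, Ckm, the muscle creatine kinase, had 1.22, 0.0966 and 163 CPM in the KO implants, 974, 938, 2693 and 204 CPM in the WT implants, 1.76 and 1258 CPM in subcutaneous fat and 0 to 23.7 CPM in visceral fat. Mb, the oxygen store myoglobin, had 0.204, 0.0483 and 14.5 CPM in the KO implants, 177, 72.3, 199 and 19.1 CPM in the WT implants, 0.113 and 103 CPM in subcutaneous fat and 0.219 to 6.64 CPM in visceral fat. The KO and WT implants did not overlap in either gene. The glycolytic and glycogen enzymes Eno3, Pygm and Pgam2 had 7.63 to 59.3, 6.72 to 138 and 1.37 to 17.2 CPM in the KO implants, against 86.2 to 1073, 170.0 to 2227 and 23.7 to 306 CPM in WT implants.

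KO implants were compared with WT implants to ask how the leptin genotype of the donor cells went with muscle transcripts. Myl1, the fast essential light chain (chromosome 1, 66924295 to 66945404, minus strand), fell in the KO implants, and it was the only gene of the set that passed the test. It averaged 38.2 ± 37.0 CPM in KO implants (SD, n = 3), against 639 ± 410 CPM in WT implants (SD, n = 4), a log2 difference of -4.33 ± 1.09 (SE; limma, adjusted p = 0.0381). All 39 tested genes had a negative log2 difference, with a median of -5.42, against -0.06 over all 17871 genes tested. Beside this 1 call, the share of all genes called was 4.1% of all genes lower and 10.8% in either direction. An unadjusted p under 0.05 was found for 31 of the 39 genes, and edgeR on the recovered reads called 0 of them and 9.8% of all genes.

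In 28 of the 39 genes every KO implant was below every WT implant, against 12.6% of all genes tested. These 28 included 11 of 13 fast genes and 2 of 8 slow genes. By role, the member with the smallest adjusted p had a log2 difference of -4.91 ± 1.53 for Acta1 (adjusted p = 0.0739), -3.88 ± 1.12 for Cacng1 (adjusted p = 0.0590), -4.30 ± 1.23 for Xirp1 (adjusted p = 0.0576) and -4.96 ± 1.43 for Pgam2 (adjusted p = 0.0586), in limma with Benjamini-Hochberg adjustment. The members with the largest adjusted p were Myl2 at -1.79 ± 1.17 (0.358), Tnni1 at -0.85 ± 1.04 (0.634), Casq2 at -1.04 ± 0.49 (0.208), Des at -2.57 ± 0.98 (0.128) and Ckm at -7.67 ± 2.57 (0.0934). Ckm thus had a larger difference than Myl1 with a wider error, and its KO implant MKF2 lay far above the other KO implants. The call of Myl1 was lost with all 16 libraries (adjusted p = 0.0737), without the filter (0.0730) and in edgeR (0.0771), and the count of genes called was 0 without any of MKM2, MKF1, MKF2, MWM1, MWM2, MWF1, EVM1, EVM2, EVFY1 or EVFY2. It was 1 without EVFN2, 6 without MWF2, and 27 without either of ESM1 and ESM2, whose spread then no longer enters the pooled error.

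**Figure D3:**
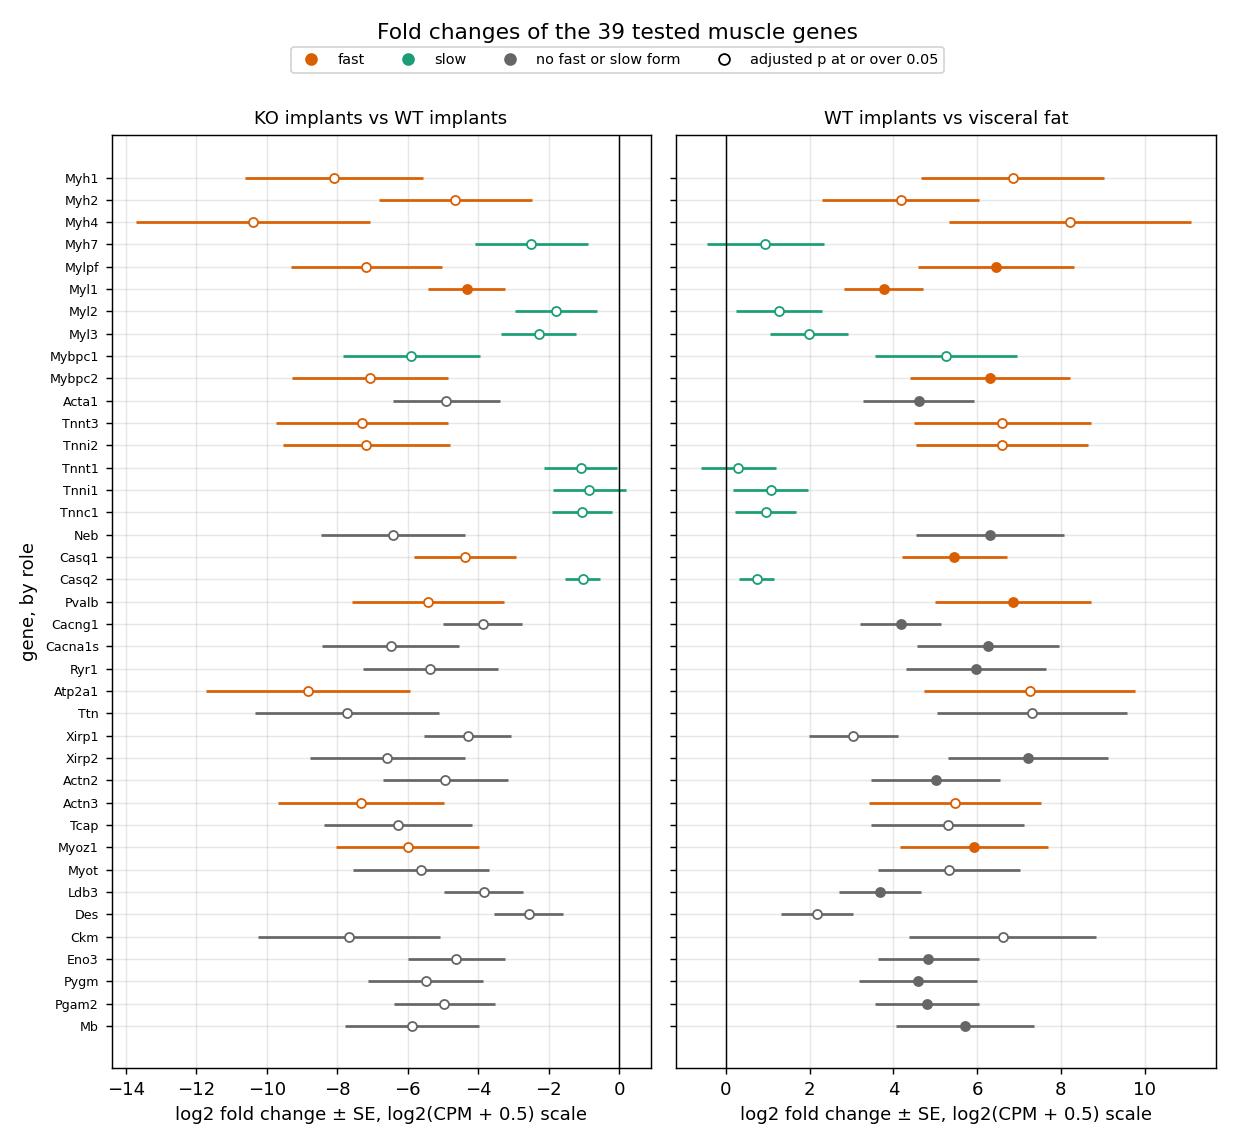
Log2 fold change ± SE on the log2(CPM + 0.5) scale of the 39 tested genes, by role, for KO implants over WT implants (left) and WT implants over visceral fat (right), with filled points where the adjusted p was under 0.05. All points lie below 0 on the left, with Myl1 filled, and above 0 on the right, with 18 filled, none of them a slow form.

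WT implants were set against visceral fat, the endogenous depot with the most libraries. In this comparison 18 of the 39 genes rose in WT implants and 0 fell, against 15.9% of all genes tested rising and 22.4% called in either direction. Those that rose were 3 of 10 thick filament genes, 2 of 7 thin filament genes, 5 of 7 calcium handling genes, 4 of 10 Z-disc genes and 4 of 5 metabolic genes. By fibre, 6 of 13 fast genes, 0 of 8 slow genes and 12 of 18 genes with no fast or slow form rose. Of the slow genes 1 had an unadjusted p under 0.05 and edgeR called 0. The median log2 difference was 5.30 over the 39 genes, 6.45 over the fast ones and 1.01 over the slow ones, against 0.11 over all genes tested. Whether the fast genes differed from the slow ones in this comparison was not tested.

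Casq1 (chromosome 1, 172209894 to 172219868, minus strand) had the smallest adjusted p of the set. It averaged 213 ± 183 CPM in WT implants (SD, n = 4), against 3.22 ± 2.05 CPM in visceral fat (SD, n = 5), a log2 difference of 5.46 ± 1.26 (limma, adjusted p = 0.0175). Myl1 rose by 3.77 ± 0.95 (adjusted p = 0.0244 in limma), Neb by 6.31 ± 1.78 (0.0369), Ldb3 by 3.68 ± 0.98 (0.0291) and Eno3, the muscle enolase, by 4.83 ± 1.20 (0.0237). No visceral library reached a WT implant in any of these 5 genes. The members with the largest adjusted p were Myh7 at 0.94 ± 1.39 (0.650), Tnnt1 at 0.29 ± 0.89 (0.831), Casq2 at 0.73 ± 0.43 (0.243), Des at 2.18 ± 0.85 (0.0968) and Ckm at 6.61 ± 2.24 (0.0660).

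The remaining genes that rose, with log2 differences from 4.17 for Cacng1 to 7.21 for Xirp2, were Mylpf, Mybpc2, Acta1, Pvalb, Cacng1, Cacna1s, Ryr1, Xirp2, Actn2, Myoz1, Pygm, Pgam2 and Mb. In 30 of the 39 genes no visceral library reached a WT implant, against 9.36% of all genes tested. The count of 18 was 6 in edgeR, which called 21.5% of all genes, and 3 without the filter. It was 0 without MWM1, MWM2 or MWF1, 1 without EVM2, 2 without EVM1, 4 without EVFY2, 9 without EVFY1 and 31 without ESM1 or ESM2.

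In the other 6 comparisons none of the 39 genes passed the test in limma, none had an unadjusted p under 0.05, and edgeR called 0. Between KO implants and visceral fat the median log2 difference was -0.39, although the sum of the KO implant MKF2, 4517 CPM, was above that of every visceral library. The differences ran from -2.17 to 1.43, where limma called 24.6% of all genes and edgeR 25.0%. KO implants against subcutaneous fat had a median of -2.53, with 39 of 39 genes negative, where limma called 18.3% of all genes and edgeR 17.0%. WT implants against subcutaneous fat had a median of 3.08, with 34 of 39 positive, where 10.4% were called (6.61% in edgeR), and subcutaneous against visceral fat a median of 2.26, with 37 of 39 positive, where 1.2% were called (1.06% in edgeR). The last 3 of these rest on ESM1 and ESM2, which differed 118-fold in sum. Without ESM1, 6 genes were called between KO implants and subcutaneous fat. Male against female implants had a median of -1.07, where limma called 2.19% of all genes and edgeR 0.369%. The KO difference in males minus that in females had a median of -2.49, where limma called 0.548% of all genes and edgeR 0.0%, and was negative in 13 of 13 fast genes and positive in 7 of 8 slow genes. In both of these comparisons the male KO implants are the single library MKM2. The female KO implants MKF1 and MKF2 differed 25.3-fold in sum. The slow genes other than Mybpc1 and Casq2 lay at 0 to 1.59 CPM in the KO implants. Whether the direction differed between fast and slow genes was not tested. The comparisons share libraries, so that their values are not independent.

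Markers of some other cell types also differed between these groups, not all in the direction of the muscle genes. Between WT implants and visceral fat, 6 of 6 lung genes, 8 of 9 sensory neuron genes, 5 of 5 myelin and Schwann cell genes, 6 of 8 brown fat genes and 1 of 5 keratinocyte genes rose, while 5 of 8 white fat genes and 6 of 6 mesothelium genes fell. Summed levels of the lung genes were 131 to 525 CPM in WT implants and 0.0548 to 0.223 CPM in visceral fat. Between KO and WT implants, 6 of 6 lung genes, 5 of 9 sensory neuron genes, 4 of 5 myelin and Schwann cell genes, 2 of 8 white fat genes and 1 of 6 mesothelium genes fell, 1 of 8 brown fat genes, Ucp1, rose, and 0 of 5 keratinocyte genes passed (1 at an unadjusted p under 0.05, 0 in edgeR). The lung sum was 9.44 to 28.6 CPM in KO implants, against 131 to 525 CPM in WT implants. Over all genes, limma called 22.4% between WT implants and visceral fat and 10.8% between KO and WT implants, in either direction. The part of these other tissues in the muscle results was not tested. In ESM2, which was as rich in the 40 genes as the WT implants, the lung sum was 0.228 CPM and the keratinocyte sum 106 CPM. In ESM1, which was poor in the 40 genes, these sums were 0.397 and 3.18 CPM. The myelin and Schwann cell sum was 596 CPM in ESM2 and 738 CPM in ESM1.

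Fast and slow forms were then set against each other within each library. Among the 4 adult myosin heavy chains, taken per kilobase of exon, Myh4 made up 88.8% in MKF2, and 79.95%, 90.1%, 89.9% and 85.4% in MWM1, MWM2, MWF1 and MWF2. It made up 89.3% in ESM1, 89.4% in ESM2, 84.4% in EVM2 and 86.4% in EVFN2. In EVFY1 the make-up was more mixed, with 61.3% Myh4, 19.9% Myh2 and 17.8% Myh1. MKM2, MKF1 and EVM1 had only 27, 28 and 26 reads in the 4 genes, and EVFY2 had 18. ESM1, with 330 reads, thus had a make-up close to that of ESM2, which had 137544 reads.

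**Figure D4:**
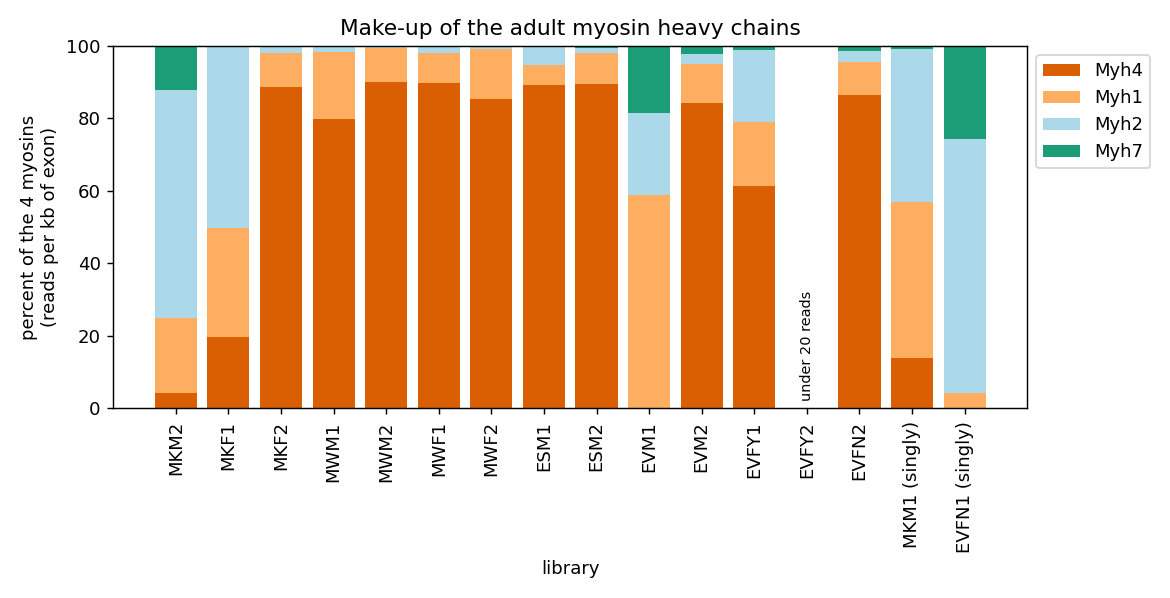
Share of Myh4, Myh1, Myh2 and Myh7 among the reads per kilobase of exon of these 4 myosin heavy chains (y axis, percent) in 16 libraries (x axis). Myh4 takes 79.95% to 90.1% in MKF2, the 4 WT implants, ESM1, ESM2, EVM2 and EVFN2, and 13.9% in MKM1, and no bar is drawn for EVFY2, which had 18 reads.

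The slow share differed between the libraries rich in muscle RNA. Of the reads of Myh7 and the 3 fast myosins together, Myh7 took 0.00146% in MWM1 (exact 95% binomial interval 0.000177 to 0.00527) and 0.00662% in MWM2 (0.00286 to 0.0131), against 0.304% in MWF1 (0.288 to 0.322), 0.316% in MWF2 (0.2505 to 0.394) and 0.787% in ESM2 (0.741 to 0.835). Of troponin T reads, the slow Tnnt1 took 0.0564% in MWM1, 0.0460% in MWM2, 0.521% in MWF1, 0.805% in MWF2 and 1.13% in ESM2. Both male WT implants thus lay below both female ones, with intervals that did not overlap. Of troponin I reads, the slow Tnni1 took 0.0473%, 0.0624%, 0.611% and 0.724% in MWM1, MWM2, MWF1 and MWF2 and 1.51% in ESM2, and of the regulatory light chains Myl2 took 0.0216%, 0.0742%, 1.35% and 1.02% in these WT implants and 2.34% in ESM2. Among the KO implants, MKF2 had slow shares of 0.0245% for myosin, 0.740% for troponin T, 0.793% for troponin I and 0.265% for the regulatory light chain. MKM2 and MKF1, with 24 to 66 reads in a pair, had slow shares of 14.8% and 0% for myosin (0 of 28 reads in MKF1, with an exact 95% upper bound of 12.3%), 28.8% and 22.2% for troponin T, and 46.4% and 12.5% for troponin I. With 2 male and 2 female WT implants an exact two-sided permutation test cannot give a p below 0.333, and none was run. PCR copies cannot be told from separate molecules here, so these intervals hold for counting error alone.

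**Figure D5:**
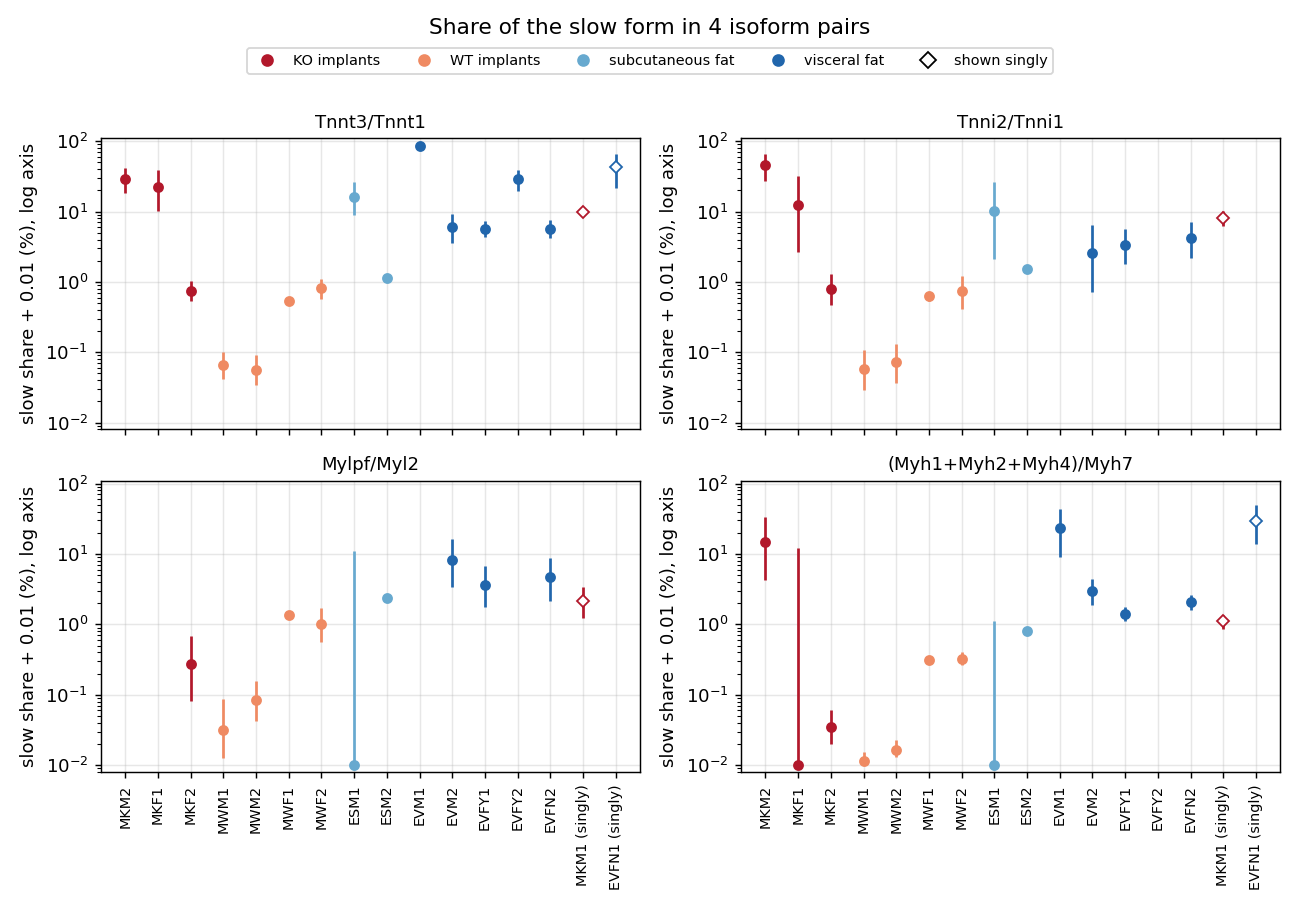
Share of the slow form in percent, plus 0.01, on a log axis, of 4 fast and slow pairs in each library with at least 20 reads in the pair, with exact 95% binomial intervals. MWM1 and MWM2 lie lowest in the Tnnt3/Tnnt1 and Tnni2/Tnni1 pairs, below MWF1 and MWF2, while libraries with few reads have wide intervals.

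The slow share of myosin binding protein C did not follow this order: Mybpc1 took 27.8%, 27.3%, 25.3% and 29.7% of Mybpc1 and Mybpc2 reads in MWM1, MWM2, MWF1 and MWF2, 26.6% in MKF2 and 25.4% in ESM2. Larger shares were found in the KO implant MKM2, at 68.3% (51.9 to 81.9), and in the visceral libraries EVFY1, at 54.6% (51.0 to 58.1), EVFY2, at 74.8%, and EVFN2, at 35.5% (30.3 to 41.0). Casq2 took 39.2%, 38.3% and 5.72% of calsequestrin reads in MKM2, MKF1 and MKF2, 4.40%, 1.42%, 2.22% and 9.19% in the WT implants, 38.7% and 1.38% in ESM1 and ESM2, and 66.2%, 71.6%, 23.9%, 88.1% and 24.3% in EVM1, EVM2, EVFY1, EVFY2 and EVFN2. Myl3 took at most 1.76% of the Myl1 and Myl3 reads in any of the 14 libraries.

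Implants, KO and WT together, were tested against endogenous fat for the mean fast share of 8 pairs, with an exact two-sided permutation test over libraries and Benjamini-Hochberg adjustment over the pairs, and none passed. The fast share of calsequestrin was 85.7 ± 16.8% in implants (SD, n = 7) and 55.1 ± 31.2% in endogenous fat (SD, n = 7), a difference of 30.5 percentage points (exact p = 0.0443, adjusted 0.222). For Mylpf and Myl2 it was 99.5 ± 0.600% in implants and 96.2 ± 3.00% in endogenous fat (SD, n = 5 each; exact p = 0.0556, adjusted 0.222). For the 3 fast myosins over Myh7 it was 97.8 ± 5.56% in implants (n = 7) and 94.96 ± 8.89% in endogenous fat (n = 6; exact p = 0.393, adjusted 0.786). The adjusted p of Tnnt3/Tnnt1 was 0.786, of Mybpc2/Mybpc1 0.862, and of Tnni2/Tnni1, Myl1/Myl3 and Tnnc2/Tnnc1 1 each in the exact test. The pair Tnnc2/Tnnc1 carries no information, since Tnnc2 was nearly without reads. In the calsequestrin pair Casq2 ranged only between 1.49 and 10.7 CPM, so that the share moved with the level of Casq1. ESM1 and ESM2 had 2.33 and 3.08 CPM of Casq2, 3.69 and 219 CPM of Casq1, and fast shares of 61.3% and 98.6%. Libraries with few reads, such as MKM2 with 46.4% Tnni1 (27.5 to 66.1), had wide intervals and weighed as much as the others.

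Other skeletal muscle genes, from lists of the same tissue, were set beside the 40 genes. Of 23 other sarcomere genes, 17 rose in WT implants against visceral fat and 0 fell, with a median log2 difference of 3.88. Over all genes tested 15.9% rose in this comparison. There edgeR called 11 of these 23 genes and 15 of the 18 triad and energy genes below. Cmya5, a costamere protein, rose by 5.43 ± 1.24 (limma, adjusted p = 0.0169), the Z-disc protein gene Myoz3 by 3.70 ± 0.93 (0.0240) and Klhl40, which protects thin filament proteins, by 4.22 ± 1.07 (0.0252). Of 18 other triad and energy genes, 16 rose and 0 fell, among them Ppp1r3a, a glycogen phosphatase subunit, by 4.43 ± 0.97 (0.0148), Srl by 4.25 ± 1.04 (0.0222) and Ampd1, the muscle AMP deaminase, by 5.68 ± 1.47 (0.0270). In KO implants against WT implants 1 of the 23 and 2 of the 18 fell: the myosin chaperone partner Smyd1 by -4.62 ± 0.98 (0.0205), the phosphorylase kinase subunit Phkg1 by -3.50 ± 0.63 (0.0106) and Sypl2, a triad junction protein, by -5.37 ± 1.45 (0.0481). Smyd1 had 0.356, 0.725 and 7.98 CPM in KO implants, against 49.1, 43.7, 107 and 11.4 CPM in WT implants. The 2 groups did not overlap in Smyd1. Over all genes tested 4.1% fell in KO implants against WT implants, and the count among the 23 sarcomere genes was near this share. There edgeR called 0 of the 23 and 1 of the 18.

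Regulators and developmental genes of muscle were few and low. Of 11 such genes, 5 were tested: Myod1, Myf6, Cdh15, Myh3 and Myh8. All 5 lay under 1 CPM in the KO implants, and in visceral fat only Myh8 in EVFY1 exceeded it. They thus passed the filter on low values mainly through the WT implants. Of these 5, 4 rose in WT implants against visceral fat and 2 fell in KO implants against WT implants. Since the filter favoured genes high in WT implants, these counts cannot be weighed against the share of all genes. Over all genes tested 15.9% rose and 4.1% fell in these comparisons, and edgeR called 2 and 1 of the 5. Myh8, the perinatal myosin heavy chain, had 0.0509, 0 and 0.258 CPM in KO implants, 18.9, 5.48, 4.73 and 1.82 CPM in WT implants, 0.454 and 1.37 CPM in subcutaneous fat and 0 to 1.71 CPM in visceral fat. Its log2 difference was -3.40 ± 0.52 between KO and WT implants (limma, adjusted p = 0.00508) and 3.08 ± 0.46 between WT implants and visceral fat (0.00274). Myh8 was highest in MWM1, not in MWF1, which had the most muscle RNA. Myf6, a myogenic factor of mature fibres, had 0, 0 and 0.944 CPM in KO implants, 8.08, 7.68, 14.9 and 2.07 CPM in WT implants, and 0 to 0.452 CPM in visceral fat, a difference of 3.60 ± 0.86 between WT implants and visceral fat (0.0202) and of -3.48 ± 0.99 between KO and WT implants (0.0570). Cdh15, the muscle cadherin, rose by 2.54 ± 0.61 in WT implants against visceral fat (0.0213) and fell by 2.64 in KO implants against WT implants (0.0467). Pax7, Myf5, Myog, Mymk, Mymx and Chrng lay at 0 to 0.215 CPM in KO implants, 0 to 1.38 CPM in WT implants, 0 to 0.342 CPM in subcutaneous fat and 0 to 0.119 CPM in visceral fat.

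Of 6 tested neuromuscular junction genes, 3 rose in WT implants against visceral fat: Colq, which anchors acetylcholinesterase, by 2.77 ± 0.40 (limma, adjusted p = 0.00242), the receptor kinase Musk by 2.62 ± 0.50 (0.00825) and Rapsn, which clusters acetylcholine receptors, by 1.93 ± 0.44 (0.0161). In KO implants against WT implants 1 of the 6, the receptor subunit Chrnb1, fell by 0.84 (0.0477). Of 8 tested heart genes 4 rose in WT implants against visceral fat and 2 fell in KO implants against WT implants. Myh6, the heart myosin, differed by 3.68 ± 0.47 between WT implants and visceral fat (0.00144) and by -2.46 ± 0.54 between KO and WT implants (0.0236). Actc1, the heart actin, differed by -3.05 ± 0.67 between KO and WT implants (0.0238). Of 9 smooth muscle genes 0 passed in either comparison in limma, 0 had an unadjusted p under 0.05 and edgeR called 0. Over all genes tested 15.9% rose between WT implants and visceral fat and 4.1% fell between KO and WT implants. In these comparisons edgeR called 3 and 1 of the junction genes and 4 and 1 of the heart genes.

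The sums of both libraries given singly lay within the range of their labelled groups. MKM1, labelled a KO implant, had a sum of 2212 CPM, against 178, 375 and 4517 CPM in the 3 other KO implants. Its myosin heavy chains were 43.1% Myh1, 42.2% Myh2 and 13.9% Myh4, a make-up that no other library with over 30 reads had, and its Mybpc1 took 73.6% (70.9 to 76.2) of the Mybpc1 and Mybpc2 reads. It had 17.6 CPM of Myh8, and its Upk3b, a mesothelial marker, stood at 200.4 CPM, against 0 to 0.0483 CPM in the other KO implants and 61.4 to 201 CPM in visceral fat. EVFN1, labelled visceral fat, was close to EVM1 in the 40 genes, with a sum of 266 CPM, of which Des made up 54.9%, and 27 reads in the 4 myosins, against 209 CPM, 43.0% and 26 reads in EVM1. Its Upk3b was at 0.0580 CPM, and its lung sum was 34.6 CPM, against at most 0.223 CPM in the other visceral libraries. With both libraries in their labelled groups, 21 of the 39 genes rose in WT implants against visceral fat and 0 fell in KO implants against WT implants.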

How the data were processed

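The data were RNA-seq of 16 libraries. Per the labels' protocols, ribosomal RNA was removed with RNase H and cDNA was made from random hexamers, while the labels name polyA RNA as the molecule. The submitters' processing notes list mm10 as the build and name STAR 2.5.4, cutadapt 2.7, Subread 1.6.3 with its featureCounts, and FastQC 0.11.4; the sources used here do not give settings, strand or annotation. The authors deposited CPM values, in columns that each sum to 1000000. All nonzero values (100%, tolerance 0.001) were whole multiples of 1 read, worth 0.0388 to 0.0608 CPM, which gave back the reads. Gene positions and exon lengths come from GENCODE annotation on GRCm38.

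The test was limma 3.58.1 (R 4.3.3) on log2(CPM + 0.5), using the trend and robust options. A gene was tested if 2 or more of 14 libraries had 1 CPM or more, which left 17871 genes, fitted as 8 group means with 6 residual degrees of freedom. MKM and EVFN keep 1 library each there, assumed to vary like the rest. Comparisons are between equally weighted group means, Benjamini-Hochberg adjusted over all genes at 0.05. "Rose" and "fell" are used of genes that passed. Fold changes on this scale understate those of low genes. Isoform shares were compared with exact permutation tests (scipy 1.17.1) in libraries with at least 20 reads in the pair. The fits were tested on simulated data. Alternatives were all 16 libraries, pseudocounts of 0.1 and 2, no filter, median-of-ratios scaling, edgeR 4.0.16 quasi-likelihood on recovered reads (it called 1752 genes between KO and WT implants and 3844 between WT implants and visceral fat), a replicate block and leaving out each library.

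Named with values in every library are the 4 myosins, the isoform pairs, Acta1, Ckm, Atp2a1, Ryr1, Pvalb, Mb and Des, with some visceral values as ranges; in a comparison, per role, the member with the smallest and that with the largest adjusted p; and up to 3 genes of each other muscle list. For the 6 comparisons in which no gene passed, counts and ranges stand in place of single genes. Other genes were named after their values were seen. Genes and lists were chosen with earlier results of these data known.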

Additional observations from a re-analysis of the deposited data

Results flagged for a closer look

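Tnnc2 stood out in WT implants because MWM2 had 0.0565 CPM while the other WT implants were at 0. It stood out in visceral fat because EVFN2 had 0.0594 CPM while the others were at 0. Each value is 1 read. With all other values of the group at 0, any single read would be marked, so these marks carry no information. The library labelled MKM1, which enters no group, had a summed level of the 40 genes of 2212 CPM, above the 209 to 1997 CPM of the visceral libraries, and Upk3b at 200.4 CPM.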

How the results depend on the processing

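The number of the 39 genes called between KO and WT implants (1) was 0 with all 16 libraries, 0 in edgeR and 0 without the filter, and 0 to 27 with 1 library left out. Between WT implants and visceral fat (18) it was 6 in edgeR, 3 without the filter, and 0 to 31 with 1 library left out, while it was 21 with all 16 libraries, 25 with a pseudocount of 2, 13 with a pseudocount of 0.1 and 15 with median-of-ratios scaling. Between KO implants and subcutaneous fat (0) it was 0 to 6 with 1 library left out. The cause was not tested. The Myl1 adjusted p between KO and WT implants ranged from 0.0165 to 0.109 over the limma and edgeR alternatives. The log2 difference of Tnnt1 between WT implants and visceral fat was 0.29, and -0.42 without MWF1, with 1.00 the highest when 1 library was left out. The fast share of Tnni2/Tnni1, in implants minus endogenous fat, was -4.42 percentage points, 2.45 in libraries with at least 100 reads, and -5.87 to 1.86 with 1 library left out. With 1 library left out it was -0.0801 to 12.0 for Mybpc2/Mybpc1, -0.135 to 0.213 for Myl1/Myl3 and -0.772 to 4.94 for the myosins. With the replicate block, limma called 12 of the 39 genes between WT implants and visceral fat and 1 between KO and WT implants; the numbers did not pair the libraries, with correlations of same-numbered deviations from -0.444 to 0.336. Over all genes, all 16 libraries gave 309 calls, against 1924, between KO and WT implants, 1735 against 4011 between WT implants and visceral fat, 0 against 4402 between KO implants and visceral fat, 49 against 3266 between KO implants and subcutaneous fat, 444 against 1858 between WT implants and subcutaneous fat, and 58 against 214 between subcutaneous and visceral fat; the spread within MKM and EVFN enters there. Calls over all genes in edgeR were 1182 between WT implants and subcutaneous fat. Between male and female implants (392) they were 66 in edgeR, 126 and 750 with pseudocounts of 0.1 and 2, and 128 with the block. For the KO difference in males minus females (98) they were 217 with all 16 libraries, 0 in edgeR (2515 at an unadjusted p under 0.05), 55 with median-of-ratios scaling, 282 without the filter, and 0 and 284 with pseudocounts of 0.1 and 2. Median-of-ratios scaling moved the median log2 difference of all genes between WT implants and subcutaneous fat to 0.03 from 0.14, and split the calls between WT implants and visceral fat into 2429 higher and 1891 lower, against 2849 and 1162, and those between WT implants and subcutaneous fat into 1390 and 589, against 1532 and 326. The KO difference in males minus females could not be fitted without MKM2. Differences under the level of 1 read, 0.0388 to 0.0608 CPM, cannot be seen at this depth.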

Other observations

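Some genes on the muscle lists did not follow the summed level of the 40 genes. Colq had 1.79, 1.41, 11.7 and 29.7 CPM in MWM1, MWM2, MWF1 and MWF2, so that it was highest in the WT implant with the least skeletal muscle RNA. Myh6 was likewise highest in MWF2, at 17.5 CPM, and stood at 17.2 CPM in the library labelled EVFN1, against 0 to 0.0594 CPM in the visceral libraries of the groups. Tnnt2, the heart troponin T, was highest in EVFY2 at 15.8 CPM and EVM1 at 8.98 CPM, both poor in skeletal muscle forms. Myh3, the embryonic myosin heavy chain, had 0 CPM in MWM1, the library with the most Myh8, and 2.32 and 2.98 CPM in MWM2 and MWF1. Myod1, a myogenic factor, had 2.16, 2.77, 3.51 and 0.365 CPM in the WT implants and 4.10 CPM in ESM2, against 0 to 0.215 CPM in the KO implants. These values were not tested as patterns.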
